A study of Drosophila melanogaster with 8 samples.

Results

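The genes described here are the translation initiation factor genes of Drosophila melanogaster, chosen as the genes whose current symbol is eIF followed by a digit and for which the array carried a probe set of their own. There were 40 such genes, with 44 probe sets between them, among 11983 genes measured in the series. The gene table used for naming lists 44 eIF genes, and eIF1A, eIF2alpha, eIF2gamma and eIF4H1 were not analysed here. RNA came from pools of 8 whole females of SZ, a composite of the 6 Zimbabwean lines ZS2, ZS11, ZS53, ZS56, ZH12 and ZH32, frozen 30 minutes after mating at 7 days post eclosion. The mates were SZ males, of their own strain, for 4 pools (ZxZ), and males of the M strain population LHM for the other 4 (ZxM). All pools held mated females of 1 composite line, and the males are the only difference between the groups that the labels give. The comparison asks whether females differed in expression after mating with males of their own or of the other strain. Each pool was hybridised to its own Affymetrix Drosophila Genome 2.0 array, and all levels below are log2 intensities of a probe set. Intensities of different probe sets are not comparable amounts of RNA, so only differences between ZxZ and ZxM of the same probe set are read as differences in expression.

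Initiation factors bring the initiator tRNA, the small ribosomal subunit and a capped mRNA together, find the start codon and join the large subunit. eIF2 carries the initiator tRNA and is recharged with GTP by eIF2B, eIF3 is a large scaffold on the small subunit, and eIF4E, eIF4G and eIF4A bind the cap, bridge to the ribosome and unwind the leader of the mRNA. The egg chambers of a Drosophila female make large amounts of protein and store maternal mRNA, and Drosophila also carries extra copies of several factors, some of which (eIF4E3 and eIF4G2 among them) are known for their part in the male germline.

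Most initiation factor genes had slightly lower levels in ZxZ than in ZxM females, and so had most other genes of the same brightness. eIF4G2, eIF5, eIF3k and eIF2Bepsilon passed the test at a 10% false discovery rate, all lower in ZxZ, by 0.14 to 0.22 on the log2 scale, and none passed in the other direction. They were 4 of the 23 eIF genes variable enough to be tested, or 17.4%, and among all 5991 genes tested 17.6% were called lower, so the share of eIF genes was that of the background. Calls of higher genes made up 1.1% of all genes tested and 0 of 23 eIF genes (6 eIF genes had an unadjusted p under 0.05 in limma, all lower in ZxZ). Over all 40 eIF genes the median difference was -0.06, with 28 negative (70%), beside a median of -0.03 and 62.5% negative over all measured genes. Genes were tested with limma with array weights and Benjamini-Hochberg adjustment, and 17 eIF genes did not pass the filter on variability. The differences of these 17 come from the same fit to all measured genes. So do all medians, counts of negative differences and comparisons with genes of a level. Tested genes can differ slightly between the 2 fits, as eIF4G2 with -0.22 in the filtered fit and -0.21 in the other. The calls rest on single pools: 0 eIF genes were called without ZxZ replicate 3, ZxZ replicate 4, ZxM replicate 1 or ZxM replicate 3, 9 were called lower and 1 higher without ZxM replicate 2, and 11 lower and 1 higher without ZxM replicate 4. The calls over all genes moved likewise, with 0 in each of the first 4 settings, 2248 lower and 302 higher without ZxM replicate 2, and 2595 lower and 373 higher without ZxM replicate 4. No eIF gene was called without array weights, without the filter, with a replicate block or after quantile normalization, settings that called 0 or 1 of all genes, and 12 were called lower with arrays centred on their median, beside 3630 of all genes.

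**Figure D1:**
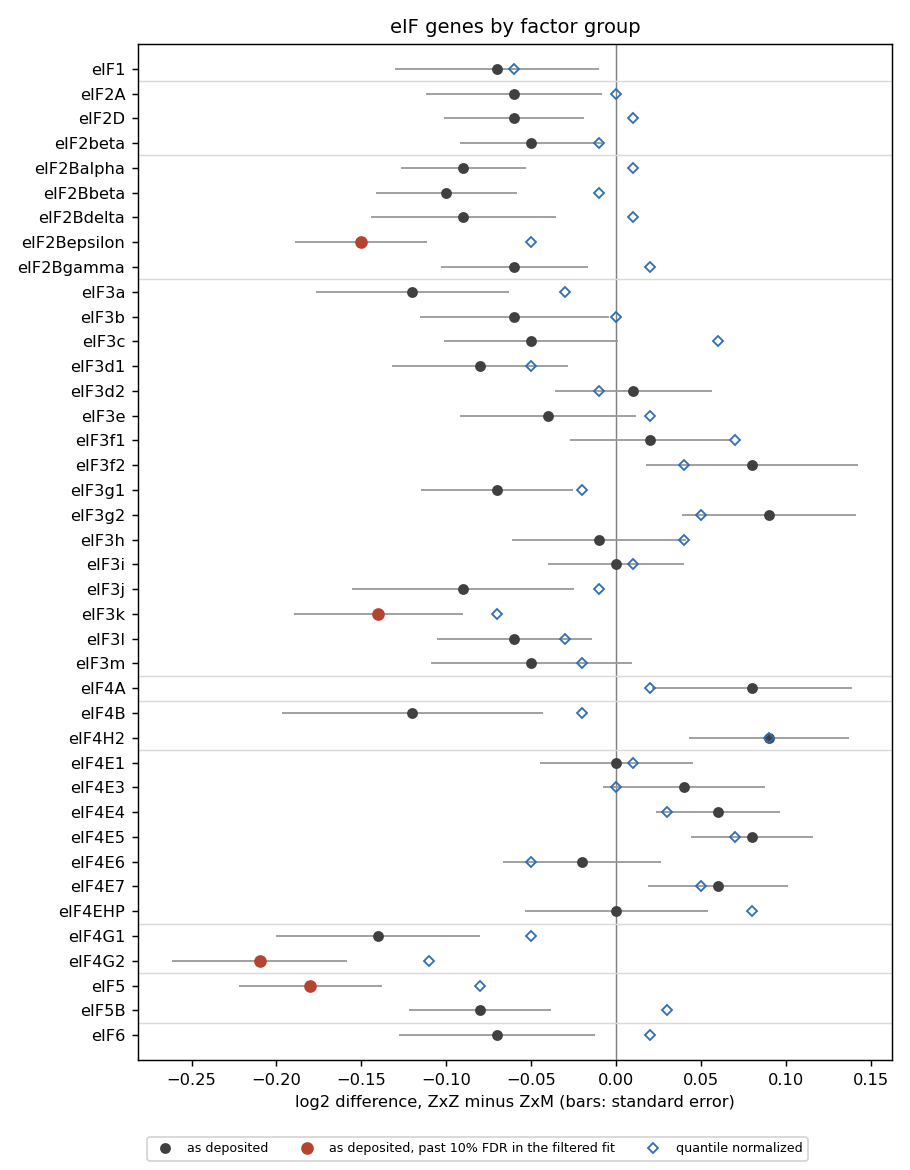
Log2 difference, ZxZ minus ZxM, of the 40 eIF genes by factor group, from the fit to all measured genes (filled points, bars are standard errors; red marks the 4 genes past 10% FDR among the genes that passed the filter) and after quantile normalization (open diamonds). Of the filled points 28 lie below 0, and the diamonds spread about 0, with 19 below it.

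The difference between the groups depended on how bright a probe set was, and the eIF genes followed that pattern. Among all measured genes with a mean under 7.5 the median difference was 0.02, among those from 9 to 10 it was -0.09, from 10 to 11 it was -0.10, from 11 to 12 it was -0.09, from 12 to 13 it was -0.05, and among those over 13 it was 0.06. The eIF genes at those levels had medians of 0.06 (9 genes), -0.06 (5), -0.09 (5), -0.09 (11), -0.06 (8) and 0.04 (2), and none lay from 7.5 to 9. The share of tested genes called lower was 1.48% under 7.5, 29.3% from 9 to 10, 32.3% from 10 to 11, 18.2% from 11 to 12, 4.57% from 12 to 13 and 0% over 13 (0 of 114 genes), and the 4 eIF calls lay between 9 and 12. Of the 40 eIF genes, 20 lay between the quartiles of all genes of their level, 7 below and 13 above. eIF4G2 lay farthest below the median of its level, by 0.12, and eIF5 by 0.10. eIF4EHP, a cap-binding protein that represses translation in the Drosophila embryo, lay farthest above, at 0.00 where the median was -0.09.

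**Figure D2:**
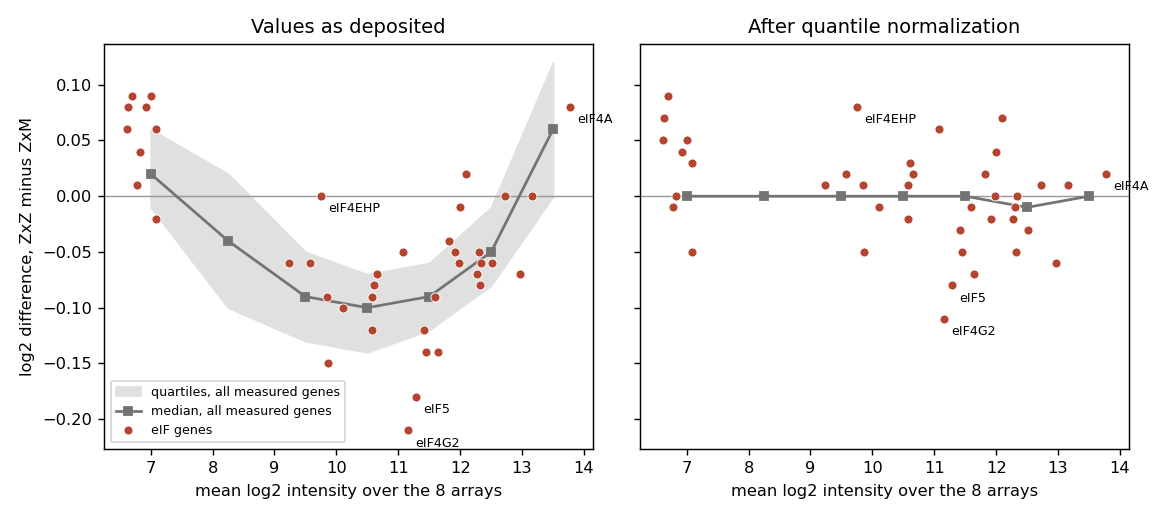
Log2 difference, ZxZ minus ZxM, against the mean log2 intensity over the 8 arrays for the 40 eIF genes (red), with the median of all measured genes in 7 ranges of level plotted at the centre of each range (grey squares, open-ended ranges at 7 and 13.5) and, on the left, their quartiles (band). As deposited, 20 of 40 eIF genes lie between the quartiles of their range and eIF4G2 lies lowest; after quantile normalization the medians of all genes lie between -0.01 and 0.00.

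Array by array, the 31 eIF genes with a mean over 9 moved with the other genes of that level, at a median difference of -0.07 beside -0.09 for all genes over 9. Their median deviation from each gene's own mean was -0.03, -0.03, -0.02 and -0.06 in the 4 ZxZ arrays, against 0.06, 0.00, 0.10 and -0.02 in the 4 ZxM arrays. Over all 5020 genes with a mean over 9 it was 0.00, -0.03, -0.07 and -0.08 in ZxZ, against 0.06, 0.00, 0.11 and 0.01 in ZxM. ZxM replicates 1 and 3 stood highest in both, and the ZxZ arrays lay at or below 0. The 75th percentile of all probe sets was 9.45 to 9.53 in ZxZ, against 9.54 to 9.63 in ZxM, without overlap. The eIF differences were also taken after quantile normalization, which gives every array the same distribution. It brings the median of all genes to between -0.01 and 0.00 at every level. Genes that follow the level pattern then centre near 0 by construction, so the part of the shift in the eIF differences is not measured by it. After quantile normalization the median of the 40 eIF genes was 0.0034, with 19 of 40 negative. No eIF gene, nor any other of the 5991 genes tested, was then called by limma (0%, with 0 eIF genes at an unadjusted p under 0.05). A difference between females and one between arrays cannot be told apart in these percentiles, and in whole flies fewer cells of a type and less RNA per cell cannot be told apart.

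eIF4G2, the paralogue of the scaffold eIF4G1 that is known in Drosophila for meiosis in the testis, had the largest difference of the eIF genes (probe set 1637987_at, chromosome arm 3R). It measured 11.10, 11.08, 10.94 and 11.13 in the ZxZ arrays, against 11.29, 11.17, 11.32 and 11.22 in the ZxM arrays, so every ZxZ array was below every ZxM array. The fitted difference was -0.22 ± 0.058 (SE), with an adjusted p of 0.0866 in limma. Quantile normalization left -0.10, and its adjusted p there was 0.511. eIF4G1, on chromosome 4, measured 11.44, 11.42, 11.37 and 11.35 in ZxZ, against 11.62, 11.29, 11.53 and 11.57 in ZxM, and missed the threshold at -0.16 ± 0.0614 (adjusted p = 0.108). ZxM replicate 2 lay below the ZxZ range and the other ZxM arrays above it, and without it eIF4G1 was called at -0.20 (adjusted p = 0.0406).

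eIF5, which triggers GTP hydrolysis by eIF2 once the start codon is found, was called with a probe set on the X chromosome (1630911_s_at, a suffix given to probe sets that may match transcripts of several genes). Its levels were 11.21, 11.17, 11.15 and 11.22 in ZxZ, against 11.43, 11.33, 11.39 and 11.30 in ZxM. The groups did not overlap, the difference was -0.19 ± 0.0488 and the adjusted p was 0.0866. eIF5B, the GTPase that joins the large subunit, did not pass the filter on variability. It measured 10.60, 10.59, 10.59 and 10.54 in ZxZ, against 10.74, 10.62, 10.61 and 10.62 in ZxM, groups that did not overlap but lay only 0.01 apart, with ZxM replicate 1 the highest array (difference -0.08 ± 0.0419 in the fit to all genes, adjusted p = 0.298). eIF6, which keeps large subunits from joining too early, measured 10.67, 10.61, 10.58 and 10.56 in ZxZ, against 10.63, 10.57, 10.90 and 10.66 in ZxM, with overlap and a difference of -0.07 ± 0.0576 in that fit.

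All 5 subunits of eIF2B, the exchange factor that recharges eIF2, had negative differences, of -0.15 to -0.06 in the fit to all genes. Their means were 9.58 to 10.58, the range in which the median of all genes was -0.09 to -0.10. eIF2Bepsilon, the catalytic subunit (1624008_at, X chromosome), was the only subunit called. It measured 9.78, 9.77, 9.86 and 9.76 in ZxZ, against 9.93, 10, 9.92 and 9.94 in ZxM, with no overlap, a difference of -0.14 ± 0.0463 and an adjusted p of 0.0921. eIF2Bbeta, a regulatory subunit also encoded on the X, hardly varied among ZxZ arrays, at 10.05, 10.04, 10.06 and 10.05, against 10.14, 10.12, 10.27 and 10.10 in ZxM. It did not pass the filter (difference -0.10 ± 0.0415 in the fit to all genes, adjusted p = 0.222) although its groups did not overlap. eIF2Balpha was tested and not called (-0.09 ± 0.0445, adjusted p = 0.166), and eIF2Bdelta and eIF2Bgamma did not pass the filter. After quantile normalization the 5 subunits spread from -0.05 to 0.02.

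Of eIF2 itself only the beta subunit was measured, at 12.27 ± 0.0352 in ZxZ and 12.34 ± 0.0645 in ZxM (SD, n = 4 each), and it did not pass the filter. Of eIF2A and eIF2D, which can deliver initiator tRNA in place of eIF2, eIF2A was tested. It measured 11.97, 12.03, 11.94 and 11.83 in ZxZ, against 12.07, 12.02, 12.05 and 11.91 in ZxM, and its difference of -0.08 ± 0.0571 was not called (adjusted p = 0.31). eIF2D measured 9.20 ± 0.0294 in ZxZ and 9.28 ± 0.0642 in ZxM, below the filter. eIF1, which guards the choice of start codon, measured 12.99, 12.99, 12.85 and 12.90 in ZxZ, against 13.06, 12.83, 13.13 and 12.94 in ZxM, groups that overlapped (-0.10 ± 0.0634, adjusted p = 0.251).

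**Figure D3:**
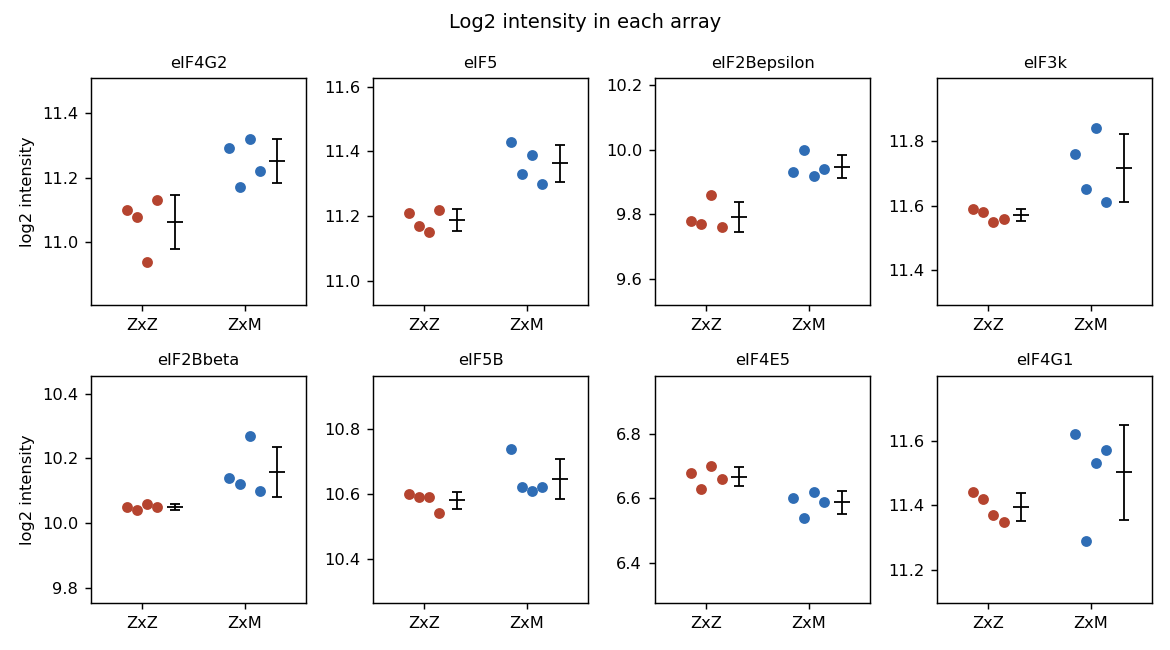
Log2 intensity in each array, ZxZ (red) left of ZxM (blue), with the mean and SD of each group (black, n = 4), for the 4 eIF genes called lower in ZxZ (top row), the 3 others whose groups do not overlap and eIF4G1; each panel spans 0.7 log2 units. Every ZxZ array lies below every ZxM array in the first 6 panels and above in eIF4E5, and ZxM replicate 2 lies lowest in eIF4G1.

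eIF3 was represented by 16 genes, 13 of them for the subunits a to m and 3 for numbered extra copies. Of the 13, 10 were tested and only eIF3k passed, 12 of 13 differences were negative, and their median was -0.06. eIF3k, a small subunit at the edge of the complex (1635342_at, arm 2R), measured 11.59, 11.58, 11.55 and 11.56 in ZxZ, against 11.76, 11.65, 11.84 and 11.61 in ZxM. The ZxZ arrays stayed within 0.04 of each other and ZxM replicates 1 and 3 were highest (difference -0.16 ± 0.0549, adjusted p = 0.0936). eIF3a, the largest subunit and the core of the scaffold, had -0.14 ± 0.0603 (adjusted p = 0.134), and eIF3j, a loosely bound member, -0.12 ± 0.0692 (adjusted p = 0.217). eIF3b, eIF3c, eIF3d1, eIF3e, eIF3h, eIF3l and eIF3m were tested and not called, with differences of -0.10 to -0.02, and eIF3f1, eIF3g1 and eIF3i did not pass the filter. eIF3l, which sits beside eIF3k in the complex, had -0.06 ± 0.0527 (adjusted p = 0.382).

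In the cap-binding complex apart from eIF4G, no gene was called. eIF4A, the helicase that opens the mRNA leader, measured 13.86, 13.89, 13.82 and 13.73 in ZxZ, against 13.80, 13.54, 13.86 and 13.74 in ZxM (0.06 ± 0.0617, adjusted p = 0.514). eIF4H2, of the group that assists eIF4A, had the smallest p of that group (0.10 ± 0.0514, adjusted p = 0.182), at 6.79, 6.73, 6.74 and 6.72 in ZxZ, against 6.64, 6.81, 6.57 and 6.63 in ZxM, where only ZxM replicate 2 lay above the ZxZ arrays. eIF4B, the other gene of that group, had 4 probe sets with means from 6.90 to 11.96. The one with the largest variance gave -0.14 ± 0.0750 (adjusted p = 0.202), and with every probe set as a feature the 4 gave -0.13, -0.06, -0.01 and 0.02, none called. ZxM replicate 2 was low in the brightest 3 of them. eIF4EHP had 2 probe sets, with differences of 0.00 and 0.02.

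Of the 9 germline-type paralogues, 8 gave intensities near the bottom of the range in every array and eIF4G2 did not. The 8 had means of 6.61 to 7.09 and lay between the 6.57th and 47.9th percentile of an array's probe sets, while eIF4G2 lay between the 92.4th and 93.7th. The 5 first-numbered genes, eIF4E1, eIF4G1, eIF3d1, eIF3f1 and eIF3g1, lay between the 94.2nd and 99th percentile. Array medians were 7.23 to 7.31. Detection calls were not used here, so at such intensities a low level cannot be told from background.

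**Figure D4:**
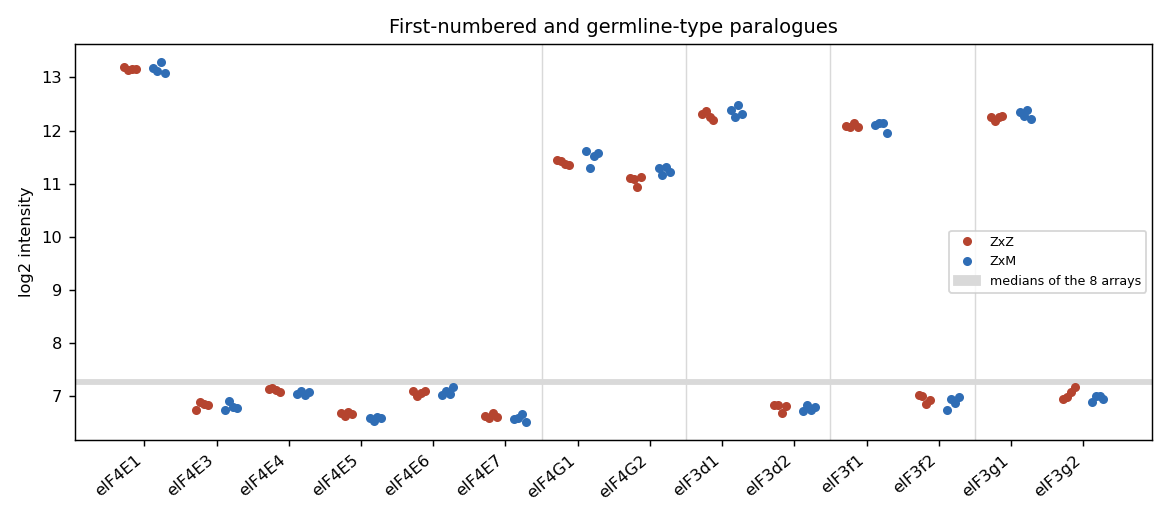
Log2 intensity of first-numbered genes and their germline-type paralogues in each array, ZxZ (red) left of ZxM (blue), with the range of the 8 array medians as a grey band (7.23 to 7.31). The 8 germline-type paralogues other than eIF4G2 lie below the band in all arrays, and eIF4G2 lies at 10.94 to 11.32; intensities of different probe sets are not comparable amounts of RNA.

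The groups did not separate in most of these paralogues. Besides eIF4G2, lower in ZxZ as given above, the exception was eIF4E5, one of the extra cap-binding proteins. It was the only eIF gene whose ZxZ arrays all lay above the ZxM arrays, at 6.68, 6.63, 6.70 and 6.66, against 6.60, 6.54, 6.62 and 6.59. It did not pass the filter (0.08 ± 0.0359 in the fit to all genes, adjusted p = 0.239). eIF4E3, required for sperm development in Drosophila, measured 6.74, 6.89, 6.86 and 6.84 in ZxZ, against 6.74, 6.91, 6.80 and 6.79 in ZxM, with overlap (0.05 ± 0.0519, adjusted p = 0.476). The extra cap-binding gene eIF4E4 measured 7.13, 7.15, 7.12 and 7.08 in ZxZ, against 7.04, 7.10, 7.02 and 7.09 in ZxM, and the ranges met only at the lowest ZxZ array. eIF4E6 measured 7.11, 7.01, 7.07 and 7.10 in ZxZ, against 7.02, 7.10, 7.05 and 7.18 in ZxM. eIF4E7, on the X, measured 6.64, 6.59, 6.68 and 6.61 in ZxZ, against 6.57, 6.59, 6.67 and 6.52 in ZxM. Neither group was higher throughout in eIF4E6 or eIF4E7, and their probe sets, like that of eIF4E4, did not pass the filter.

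The 3 extra eIF3 subunits overlapped between the groups as well. eIF3d2 measured 6.83, 6.83, 6.68 and 6.81 in ZxZ, against 6.73, 6.84, 6.75 and 6.80 in ZxM. eIF3f2, the only one tested, measured 7.02, 7.00, 6.86 and 6.94 in ZxZ, against 6.74, 6.96, 6.88 and 6.98 in ZxM (0.08 ± 0.0665, adjusted p = 0.369). ZxM replicate 1 was its lowest array. eIF3g2 measured 6.96, 6.98, 7.08 and 7.17 in ZxZ, against 6.90, 7.01, 7.01 and 6.96 in ZxM, with ZxZ replicates 3 and 4 above all ZxM arrays.

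Their first-numbered counterparts did not separate either. eIF4E1, the main cap-binding protein, measured 13.19, 13.14, 13.15 and 13.15 in ZxZ, against 13.17, 13.12, 13.29 and 13.09 in ZxM. eIF3d1, a subunit that can itself contact the cap in human cells, measured 12.31, 12.36, 12.26 and 12.20 in ZxZ, against 12.39, 12.26, 12.49 and 12.32 in ZxM. The groups overlapped in both genes. eIF3f1 measured 12.08, 12.06, 12.14 and 12.07 in ZxZ, against 12.10, 12.15, 12.14 and 11.96 in ZxM. eIF3g1, an RNA-binding subunit encoded on the X, measured 12.26, 12.18, 12.25 and 12.27 in ZxZ, against 12.35, 12.28, 12.38 and 12.22 in ZxM, where only ZxM replicate 4 lay within the ZxZ range.

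The paralogue contrasts took the log2 value of the germline-type gene minus that of its first-numbered gene within each array, which removes a shift common to both probe sets. None of 9 such contrasts passed an exact permutation test between ZxZ and ZxM (two-sided, smallest p possible 0.0286). The smallest p was 0.0857, for eIF3g2 minus eIF3g1, at -5.19 ± 0.0858 in ZxZ and -5.34 ± 0.0898 in ZxM (SD, n = 4 each), a difference of 0.15, and for eIF4E5 minus eIF4E1, at -6.49 ± 0.0274 in ZxZ and -6.58 ± 0.0749 in ZxM, a difference of 0.09. Adjusted over the 9 contrasts both were 0.386. For eIF4G2 minus eIF4G1, the one contrast between probe sets of like intensity, the arrays gave -0.34, -0.34, -0.44 and -0.23 in ZxZ, against -0.34, -0.12, -0.21 and -0.35 in ZxM, with overlap and a difference of -0.08 (exact permutation p = 0.229). A difference in response between these 2 genes was thus not resolved, although eIF4G2 was called and eIF4G1 was not. The other 6 contrasts differed by -0.01 to 0.09, with exact permutation p of 0.143 to 0.943. The contrasts other than that of eIF4G set a bright against a dim probe set, between which all genes differed in the way given above.

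Genes that act beside the initiation factors were counted in the same way, beside the 17.6% of all tested genes called lower and the median of -0.03 over all measured genes. Of 19 measured regulators of initiation, 15 were tested, 3 were called lower and 0 higher, with a median of -0.06 over the 19. MCTS1, which acts with DENR in reinitiation, had -0.17 ± 0.0497 (adjusted p = 0.0874), Gcn2, a kinase of eIF2alpha in amino acid shortage, -0.13 ± 0.0473 (adjusted p = 0.0963) and S6k, the ribosomal protein kinase downstream of Tor, -0.20 ± 0.0702 (adjusted p = 0.0957). PEK, the eIF2alpha kinase of the endoplasmic reticulum, missed the threshold (-0.16 ± 0.0597, adjusted p = 0.101). Of 9 measured elongation and release factors, 8 were tested and none was called (median -0.06). eEFSec, for selenocysteine, had -0.13 ± 0.0559 (adjusted p = 0.129), while eEF5, which helps ribosomes past proline runs, had 0.13 ± 0.0612 (adjusted p = 0.146) at an intensity over 14. Of 7 measured mitochondrial translation factors, all were tested and only mEFG1, the mitochondrial translocase, was called, with 9.99, 9.94, 9.90 and 9.98 in ZxZ, against 10.14, 10.09, 10.24 and 10.05 in ZxM (-0.19 ± 0.0519, adjusted p = 0.0874). These 4 calls were not made without array weights or without the filter.

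Counted over all 40 eIF genes, tested or not, the ZxZ arrays lay wholly below the ZxM arrays in 6 genes (15.0%) and wholly above in 1 (2.5%). Over all 11983 measured genes the shares were 8.7% and 1.54%. The 6 genes were all among the 31 eIF genes with a mean over 9, a level at which 4519 of 5020 measured genes had negative differences. The share over all genes of that level was not counted, so 15.0% and 8.7% are not matched for level. After quantile normalization none of the 40 separated, beside 1.58% of all genes lower and 1.84% higher.

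Most markers of the tissue fitted whole females. Yolk and eggshell genes (6 of 6 measured) had means of 13.01 to 15.00, and 7 of 8 ovary germline markers were measured, with means of 7.39 (vas) to 12.76 (osk). Averaged over the list, ovary germline markers lay at 10.27 to 10.34 in ZxZ, against 10.28 to 10.50 in ZxM. Of 6 tested, orb (-0.23) and otu (-0.17) were called lower, while osk (0.07) and bcd (0.14) had positive differences and were not called. Among all tested genes 17.6% were called lower, and 18.2% of those with means from 11 to 12, where orb and otu lay. Yolk and eggshell genes averaged 14.08 to 14.41 in ZxZ, against 14.16 to 14.35 in ZxM. Of 6 tested, the yolk gene Yp3 was called higher (0.17), beside 1.1% of all tested genes. That share is not matched for level. Yp3 had a mean of 14.61, and all measured genes over 13 had a median difference of 0.06 and an upper quartile of 0.12. After quantile normalization Yp3 had 0.05. The eggshell genes Cp36 (-0.24, adjusted p = 0.109 in limma) and Cp38 (-0.22, adjusted p = 0.134) had negative differences and were not called. Testis markers (10 of 11 measured) averaged 7.07 to 7.10 in ZxZ, against 7.06 to 7.13 in ZxM, and none of 4 tested was called. Their means ran from 6.35 to 9.80, with twe (9.80) and bol (7.75) the brightest. Accessory gland markers (6 of 6) averaged 6.62 to 6.67 in ZxZ, against 6.58 to 6.64 in ZxM. Of 2 tested, SP, the sex peptide, was called higher (0.16 ± 0.046, adjusted p = 0.0874 in limma) and Acp26Aa was not (0.09, adjusted p = 0.213). SP lay between the 8.52th and 25.8th percentile of an array's probe sets, where a low level cannot be told from background. The part of ovary cells or of material from the male in the eIF values was not tested.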

How the data were processed

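The authors deposited log2 values for 18952 probe sets, made with VSN for background, calibration and transformation and with RMA for the summary per probe set (affy, R 2.8.1, per the methods and processing notes). VSN compresses differences between low values. Gene names came from the platform annotation, with symbols updated by Entrez number from the RefSeq table of Release 6 plus ISO1 MT. Probe sets naming several genes (402) or unlisted (4720) were not used, which leaves out 2 shared by eIF4E7 and CG17010. As in the methods, the probe set of largest variance stood for a gene. The methods filter on an interquartile range of 0.5, read here as a quantile, which is an assumption, so the upper 50% of genes by interquartile range (at least 0.0908) were tested with limma 3.58.1 under R 4.3.3 (weights by REML from arrayWeights, lmFit and eBayes), ZxZ minus ZxM, and genes at 10% FDR were called. Weights ran from 0.505 (ZxM replicate 2) to 1.75 (ZxM replicate 1), with 1.61 for ZxZ replicate 3. Fitted differences can therefore depart from those between the plain group means. For eIF4G1 the fit gave -0.16 and the plain means -0.11, and for eIF4G2 they gave -0.22 and -0.19. The fit was tested on simulated data. Array pairs correlated at 0.996 to 0.998 (Pearson's r across probe sets, which are not independent), and none of 28 was identical. The labels call the arrays biological replicates, and their number limits the precision.

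Every eIF gene was named. Those called, not overlapping, of smallest p in their factor group, or paralogues were given by array. Up to 4 genes of each related list were named by smallest p. Members and lists were chosen with earlier results of these data known. Alternatives concerned weights, filters (also an interquartile range of 0.5), probe set, normalization, block, prior, Student's t-test and each array left out.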

Additional observations from a re-analysis of the deposited data

Results flagged for a closer look

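In 8 of 98 groups of 4 arrays (40 genes and 9 paralogue contrasts, each in ZxZ and ZxM) 1 array stood far from the other 3, its gap to the nearest over the group's range exceeding Dixon's 95% critical value; chance alone flags about 1 in 20 groups. In ZxZ these were eIF2Bepsilon (9.86 in replicate 3, the others 9.76 to 9.78), eIF2D (9.24 in replicate 3, the others 9.18 to 9.19), eIF3d2 (6.68 in replicate 3, the others 6.81 to 6.83) and eIF5B (10.54 in replicate 4, the others 10.59 to 10.60). In ZxM they were eIF2Bdelta (10.81 in replicate 2, the others 10.58 to 10.59), eIF4B (10.31 in replicate 2, the others 10.69 to 10.77), eIF3e (11.73 in replicate 4, the others 11.89 to 11.91) and eIF5B (10.74 in replicate 1, the others 10.61 to 10.62).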

How the results depend on the processing

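The count of 4 eIF genes called lower became 0 without array weights, 0 without the variability filter and 0 after quantile normalization. It was also 0 after quantile normalization with probe sets and tested genes held (chosen after seeing the data). A plain Student's t-test, without the array weights and empirical Bayes moderation of the methods, gave 0 as well. In these 5 settings 4, 7, 0, 0 and 5 eIF genes had an unadjusted p under 0.05. With arrays centred on the median it was 12 (3630 of all genes). Leaving out 1 array gave 0 to 11 lower and 0 to 1 higher (0 to 2595 and 0 to 373 of all genes). With the replicate block it was 0 (7 at an unadjusted p under 0.05). Same-numbered arrays correlated at -0.26 to 0.16 in their deviations from the group means. Of the 4 ZxZ arrays, 0 correlated best with the ZxM array of its number, though ZxM replicate 4 correlated best with ZxZ replicate 4 (0.16). With only 4 numbers these correlations cannot decide whether the replicate numbers pair the pools. The probe set of highest mean, the trend and robust prior and leaving out the lowest 25% of probe sets gave 4, 4 and 5. The median difference of -0.06 turned to 0.0033 after quantile normalization and 0.0034 with probe sets held, and was -0.08 to -0.02 with 1 array left out. The 4 called genes of related lists became 0 without weights and 0 without the filter. eIF2Bepsilon, eIF4G2 and eIF5 each kept their direction in 19 of 19 alternatives in which they were tested and their call in 8. eIF3k kept its direction in 17 of 17 and its call in 8. Those 17 leave out the settings without ZxM replicate 1 and without ZxM replicate 3, the arrays in which eIF3k was highest. It was not among the genes tested there, so its count is the more favourable for that. The cause was not tested. No eIF gene reached an interquartile range of 0.5. The 4 pools a group, and intensities near background for 8 paralogues, limit what could be resolved.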
